A study of Mus musculus with 3 samples.

Results

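Oxidative phosphorylation (OXPHOS) genes are described here in immune cells of melanoma grafts, which were grown in mice 4, 12 and 20 months old. Nuclear genes were taken by symbol, as Nduf, Sdh, Uqcr, Cox and Atp5 genes, and pseudogenes were left out. The symbol pattern does not take in Cox4i1, Cox4i2, Cox7a2l, Ndufab1 or Ndufa4l2. This gave 81 nuclear gene identifiers with 80 symbols, because Atp5o is listed under 2 identifiers, and with the 13 mitochondrial protein genes 94 of the 55401 listed genes. Per the labels, 500000 cells of YUMM1.7, a transplantable mouse melanoma line, were injected under the skin of 7 mice of each age, and the tumours were taken 18 days later. All 3 groups carried the same tumour line, and the labels give no strain, sex or further treatment. After digestion of the tumours (collagenase D, DNase I), live cells bearing the leukocyte protein CD45 were sorted, and 1 PIP-seq 3′ single-cell RNA library was deposited for each age. The labels do not say how cells of the 7 mice were combined, so ages are compared without a replicate and without a test. The 95% intervals cover counting error only.

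The respiratory chain sits in the inner mitochondrial membrane. Complex I (NADH dehydrogenase) and complex II (succinate dehydrogenase) pass electrons through complex III to complex IV (cytochrome c oxidase), and complex V (ATP synthase) uses the resulting proton gradient to make ATP. Mitochondrial DNA encodes a few core subunits of complexes I, III, IV and V, all other subunits are encoded in the nucleus and imported, and complex II is wholly nuclear. Several subunits have tissue-restricted paralogues, such as those of heart and skeletal muscle or testis. Activated lymphocytes and macrophages are known for shifting between respiration and glycolysis.

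The libraries held 14393, 14653 and 14684 cells and 110371225, 127850782 and 119873564 counts at 4, 12 and 20 months. After filtering, 13472, 13741 and 13756 immune cells were kept. Over all deposited cells, the median share of mitochondrial counts in a cell was between 1.95% and 2.16% in the 3 libraries. Library pairs shared 2 to 4 cell barcodes. Cells were clustered without the OXPHOS genes and classes were named from marker genes, the suffix "-like" marking a name that rests on them. The labels call the cell type melanoma, but no cluster took the melanoma name, and besides immune cells there were 128 fibroblast-like and 9 erythroid-like cells. Genes of other cell types were counted too, and their part in the OXPHOS values was not tested. Cd8a, a T cell gene, was at 751, 687 and 694 counts per 1000000 counts of the class (CPM) at 4, 12 and 20 months in T-like cells and at 61.5, 98.96 and 85.9 CPM in monocyte/macrophage-like cells. Lyz2, a myeloid gene, was at 5126, 5020 and 5161 CPM in the latter and at 681, 579.5 and 649 CPM in T-like cells.

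The summed OXPHOS genes separated the cell classes. Nuclear OXPHOS genes took 2.13, 2.16 and 2.0001% of counts in T-like cells at 4, 12 and 20 months and 2.09, 2.04 and 1.97% in NK-like cells. They took 1.83, 1.85 and 1.82% in monocyte/macrophage-like and 1.77, 1.76 and 1.77% in dendritic cell-like cells, so both lymphoid classes lay above both myeloid classes in every library. Plasmacytoid dendritic cell-like cells, a rare class of 62, 57 and 52 cells, were lowest of these 5 classes, at 1.41, 1.31 and 1.26%. The 13 mitochondrial genes ran in another order. They took 1.58, 1.58 and 1.61% in plasmacytoid dendritic cell-like cells, 1.12, 1.29 and 1.302% in NK-like, 1.06, 1.15 and 1.15% in T-like, 0.853, 0.927 and 0.975% in dendritic cell-like and 0.719, 0.822 and 0.883% in monocyte/macrophage-like cells, an order kept in all 3 libraries. The nuclear to mitochondrial ratio, nuclear OXPHOS counts per mitochondrial protein gene count, was 2.54, 2.25 and 2.07 in monocyte/macrophage-like cells, 2.005, 1.87 and 1.74 in T-like, 2.07, 1.900 and 1.81 in dendritic cell-like, 1.86, 1.58 and 1.52 in NK-like and 0.893, 0.828 and 0.786 in plasmacytoid dendritic cell-like cells. Of the 5 classes, the plasmacytoid ratio was the lowest and the monocyte/macrophage-like ratio the highest in every library. T-like and dendritic cell-like ratios lay close together, with the dendritic cell-like ratio above the T-like ratio in all 3.

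**Figure D1:**
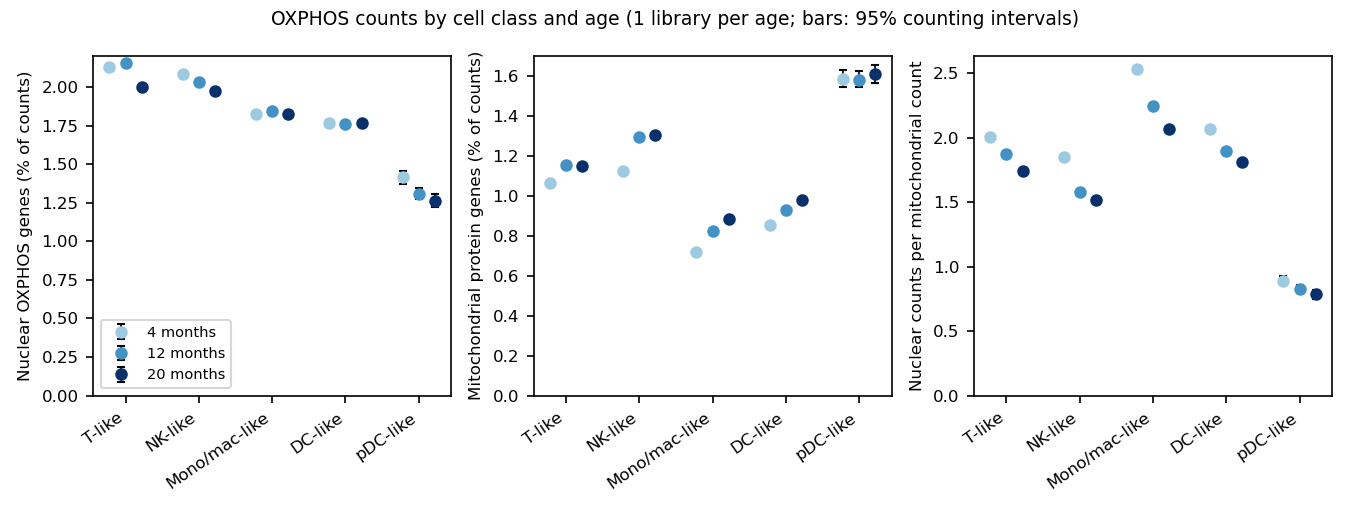
Percent of counts from nuclear OXPHOS genes (left), from the 13 mitochondrial protein genes (middle), and their ratio (right) in 5 cell classes; each point is 1 library, coloured by age, with its 95% counting interval. Plasmacytoid dendritic cell-like cells (pDC-like) are lowest for the nuclear share and highest for the mitochondrial share, and in each class the ratio is highest at 4 and lowest at 20 months.

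Classes pooled clusters that differed among themselves. Among T-like cells the nuclear share was high in cluster 19, led by the cell cycle genes Ube2c, Birc5 and Top2a, at 2.53, 2.53 and 2.34%, and in cluster 5, led by Ccl1, Ccl3 and Ifng, at 2.48, 2.52 and 2.36%. As a mean over cells it was 2.42, 2.41 and 2.25% in cluster 19 and 2.35, 2.40 and 2.26% in cluster 5. Cluster 7, with gamma-delta T cell markers, had means of 2.37, 2.20 and 2.16%. Within cluster 19 the share had a Pearson correlation with log2 counts per cell of 0.55, 0.47 and 0.40. The T-like cluster with regulatory T cell markers (cluster 15) had the lowest mitochondrial share among T-like clusters of 50 cells or more in each library, 0.794, 0.855 and 0.918%. The dendritic cell-like cluster led by Fscn1 and Ccr7 (cluster 17) held 0.569, 0.700 and 0.737% mitochondrial gene counts, against 0.911, 1.01 and 1.01% in the other dendritic cell-like cluster. Among the monocyte/macrophage-like clusters of 50 cells or more in each library, the lowest mitochondrial share was in cluster 0, led by MHC class II genes, at 0.633, 0.743 and 0.787%. Cluster 4, led by F13a1, S100a8 and Hp, carried both monocyte and neutrophil markers and stayed unnamed. Its mitochondrial share was 1.13, 1.19 and 1.201%, above every monocyte/macrophage-like cluster. Across the 18 clusters with 50 cells or more in each library, mean nuclear and mitochondrial shares had a Pearson correlation of 0.14 and a Spearman correlation of 0.29. The clusters share libraries, and both shares are parts of 1 total.

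The age comparison of the nuclear sum gave small differences. In T-like cells the log2 ratio of the nuclear share was 0.014 (95% interval 0.0099 to 0.018) at 12 against 4 months and -0.094 (95% interval -0.10 to -0.089) at 20 against 4 months. In monocyte/macrophage-like cells it was 0.016 (95% interval 0.011 to 0.021) at 12 months and -0.0014 (95% interval -0.0063 to 0.0035) at 20 months, the latter interval including 0. NK-like cells gave -0.080 (95% interval -0.087 to -0.073) and dendritic cell-like cells 0.0024 (95% interval -0.0097 to 0.015) at 20 months. The T-like difference at 20 months was near the shift of all genes at 50 CPM or more, whose median log2 ratio was -0.12 against -0.11 for the 74 nuclear members tested. As a share of counts outside mitochondrial and ribosomal protein genes, that T-like value was -0.048, and as a mean over cells -0.048.

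Mitochondrial genes took a larger share at 12 and 20 than at 4 months in the 4 large classes. The log2 ratio of their share at 20 against 4 months was 0.30 in monocyte/macrophage-like, 0.21 in NK-like, 0.19 in dendritic cell-like and 0.11 in T-like cells. In plasmacytoid dendritic cell-like cells it was 0.021 (95% interval -0.036 to 0.077). The nuclear to mitochondrial ratio was therefore lower at the later ages. At 20 against 4 months its log2 ratio was -0.30 (95% interval -0.31 to -0.29) in monocyte/macrophage-like and -0.20 (95% interval -0.21 to -0.19) in T-like cells, and at 12 against 4 months it was -0.18 (95% interval -0.19 to -0.17) and -0.10 (95% interval -0.11 to -0.090). The ratio was lower at 20 than at 4 months in 18 of the 18 clusters with 50 cells or more in each library, with a range of log2 ratios from -0.40 to -0.040, and in 17 of them the interval lay below 0. The same count at 12 months was 18 of 18. Of the 5 immune clusters with fewer than 50 cells in some library, T-like cluster 18 (51, 47 and 89 cells) went the other way. Its name is less sure, with a marker score of 0.69 for T-like and 0.50 for monocyte/macrophage-like, and no T-like marker among its leading genes. Its nuclear share averaged 1.13 and 1.30% over cells at 4 and 20 months, against 2.04 and 1.97% in the whole T-like class. Its ratio was 1.12, 1.58 and 1.56 at 4, 12 and 20 months, with log2 ratios of 0.50 (95% interval 0.42 to 0.58) at 12 and 0.48 (95% interval 0.41 to 0.55) at 20 against 4 months. B-like cluster 24 (25, 26 and 22 cells) was at 0.028 (95% interval -0.068 to 0.12) and -0.023 (95% interval -0.13 to 0.084). Mast/basophil-like cluster 14 (9, 18 and 17 cells) was at -0.044 (95% interval -0.18 to 0.094) and -0.094 (95% interval -0.25 to 0.058). Clusters 10 and 21 were lower at both ages with intervals below 0, cluster 10 against only 17 cells at 4 months. At 20 months the mitochondrial share was higher in 17 of the 18 larger clusters, and the interval of the nuclear share lay above 0 in 2 and below 0 in 13.

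The monocyte/macrophage-like values depended on which cells carried that name. With cluster 4 counted in, the log2 ratio at 20 against 4 months was -0.19 and at 12 against 4 months -0.10. With doublets kept these were -0.18 and -0.088, and at a clustering resolution of 0.5 -0.20 and -0.095. With each library clustered on its own, the 12-month value was 0.0086. Within cluster 0 the ratio was 3.08, 2.57 and 2.37, within cluster 1 2.19, 1.997 and 1.902, within cluster 3 2.43, 2.003 and 1.92 and within cluster 4 1.51, 1.48 and 1.45, so each was lower at 12 and 20 than at 4 months. T-like cells came from different clusters at different ages. Cluster 11 (led by Cd8b1, Cxcr6 and Gzmk) held 2328 of 5117 and 2653 of 6280 of them at 4 and 20 months, while cluster 10, of which 1724 of 1776 cells were from the 12-month library, was the largest at 12 months. Cluster 9 held 87, 203 and 1299 cells at 4, 12 and 20 months, so it lay mostly in the 20-month library. Without cluster 9, the T-like log2 ratio of nuclear to mitochondrial counts at 20 against 4 months was -0.15 in place of -0.20. Within cluster 11 the ratio was 2.11, 2.07 and 1.899. Other shares moved with age too. Cytosolic ribosomal protein genes took 8.11, 9.099 and 9.85% of counts in monocyte/macrophage-like and 14.8, 15.7 and 17.3% in T-like cells, and stress genes induced by tissue digestion took 0.462, 0.528 and 0.324% and 0.203, 0.205 and 0.147%. The ribosomal RNAs of mitochondria took 1.14, 0.964 and 1.15% and 0.887, 0.756 and 0.921%, lowest at 12 months in both. The part of these shares in the OXPHOS values was not tested.

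**Figure D2:**
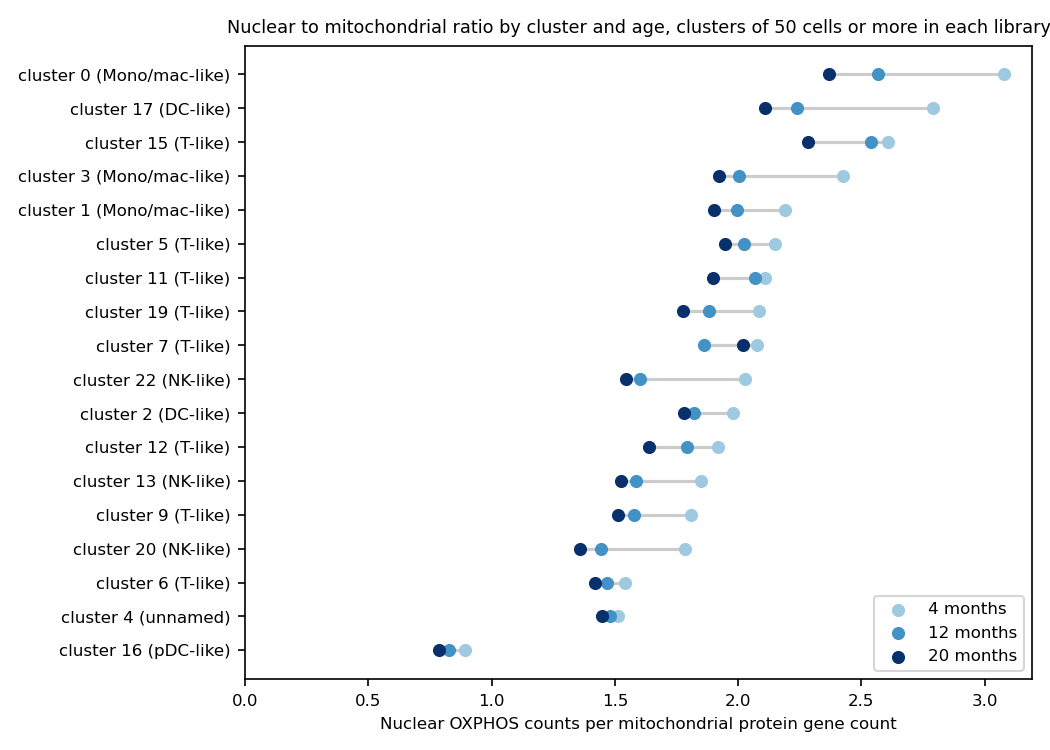
Nuclear OXPHOS counts per mitochondrial protein gene count in the 18 clusters with 50 cells or more in each library, 1 point per library and cluster, ordered by the 4-month value. The 20-month point lies left of the 4-month point in all 18 clusters, and the plasmacytoid cluster lies below 1 at all 3 ages.

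The 7 mitochondrial complex I genes differed in the size of their age ratios. mt-Nd3, a small core subunit (mitochondrial positions 9459 to 9806), was at 57.5, 59.7 and 76.5 CPM in T-like cells at 4, 12 and 20 months. It was at 60.98, 67.97 and 90.6 CPM in NK-like, 50.5, 52.9 and 71.03 in dendritic cell-like and 30.5, 34.4 and 48.9 in monocyte/macrophage-like cells. The 20-month library was the highest in each of these classes. Its log2 ratio at 20 against 4 months was 0.41 (95% interval 0.33 to 0.49) in T-like and 0.68 (95% interval 0.57 to 0.79) in monocyte/macrophage-like cells, where its mean was below 50 CPM. mt-Nd1 was at 625, 694 and 815 CPM in monocyte/macrophage-like and 1058, 1088 and 1211 CPM in T-like cells, again highest at 20 months, with log2 ratios of 0.38 and 0.20. mt-Nd2 had log2 ratios of 0.31 and 0.21 and mt-Nd5 of 0.21 and 0.13. mt-Nd4 gave 0.25 in monocyte/macrophage-like and 0.029 in T-like cells. Both mt-Nd4l at 6.07, 8.38 and 7.86 CPM and mt-Nd6 at 12.6, 18.7 and 17.02 CPM in T-like cells were highest at 12 months. mt-Nd4l overlaps mt-Nd4, mt-Atp8 overlaps mt-Atp6, and mt-Nd6 lies on the opposite strand, so how reads were assigned among them is uncertain.

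mt-Cytb, the only mitochondrial subunit of complex III, was the only 1 of the 11 mitochondrial genes at 50 CPM or more below its 4-month level at 20 months in T-like cells. It was at 1381, 1454 and 1298 CPM there, lowest at 20 months, with a log2 ratio of -0.089 (95% interval -0.11 to -0.071). In monocyte/macrophage-like cells it was at 809.5, 932 and 931 CPM, lowest at 4 months, with a log2 ratio of 0.20. The 3 complex IV core genes were higher at 20 than at 4 months in both classes. mt-Co1, which holds the oxygen-binding site, was at 1327, 1522 and 1624 CPM in monocyte/macrophage-like and 1399, 1510 and 1573 CPM in T-like cells, with log2 ratios of 0.29 and 0.17. mt-Co2 gave log2 ratios of 0.29 and 0.17. mt-Co3, which gave the most counts of any member (837379, or 24.6% of the mitochondrial sum), was at 1655, 1898 and 1991 and 2762, 3044 and 2851 CPM, with log2 ratios of 0.27 and 0.046. It peaked at 12 months in T-like cells. The complex V genes mt-Atp6 and mt-Atp8 gave 0.38 and 0.24 in monocyte/macrophage-like and 0.20 and 0.085 in T-like cells.

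Counting members past a log2 ratio of 0.25 among genes at a mean of 50 CPM or more gave different counts for mitochondrial and nuclear genes. In monocyte/macrophage-like cells at 20 against 4 months, 7 of 10 mitochondrial genes that passed the CPM minimum were higher by that much and 0 were lower, while 1 of 73 nuclear genes was higher and 1 lower. Of all 3104 genes tested there, 12.1% were higher and 13.6% lower. In NK-like cells 6 of 11 mitochondrial genes were higher (all genes, 7.95%), and 0 of 73 nuclear genes were higher and 1 lower (all genes, 8.41% lower). In T-like cells the mitochondrial count was 1 of 11 (all genes, 9.16% higher), and 0 of 74 nuclear genes were higher and 3 lower (all genes, 15.7% lower). Dendritic cell-like cells gave 2 of 11 mitochondrial genes higher (all genes, 11.5%) and 0 of 73 nuclear genes in either direction (all genes, 14.7% lower). The nuclear shares past the fold lay below those of all genes in each of the 4 classes, a description without a test. All genes were not matched to the members for level, and counting error is larger for genes near 50 CPM. At 12 against 4 months the mitochondrial counts were 2, 2, 0 and 1 higher in monocyte/macrophage-like, NK-like, T-like and dendritic cell-like cells (all genes, 7.41%, 4.33%, 5.29% and 7.95%). The only nuclear member past the fold then was Ndufs7 in dendritic cell-like cells, at -0.251 (all genes, 10.9% lower in that class, and 10.6%, 3.21% and 7.4% in monocyte/macrophage-like, NK-like and T-like cells).

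**Figure D3:**
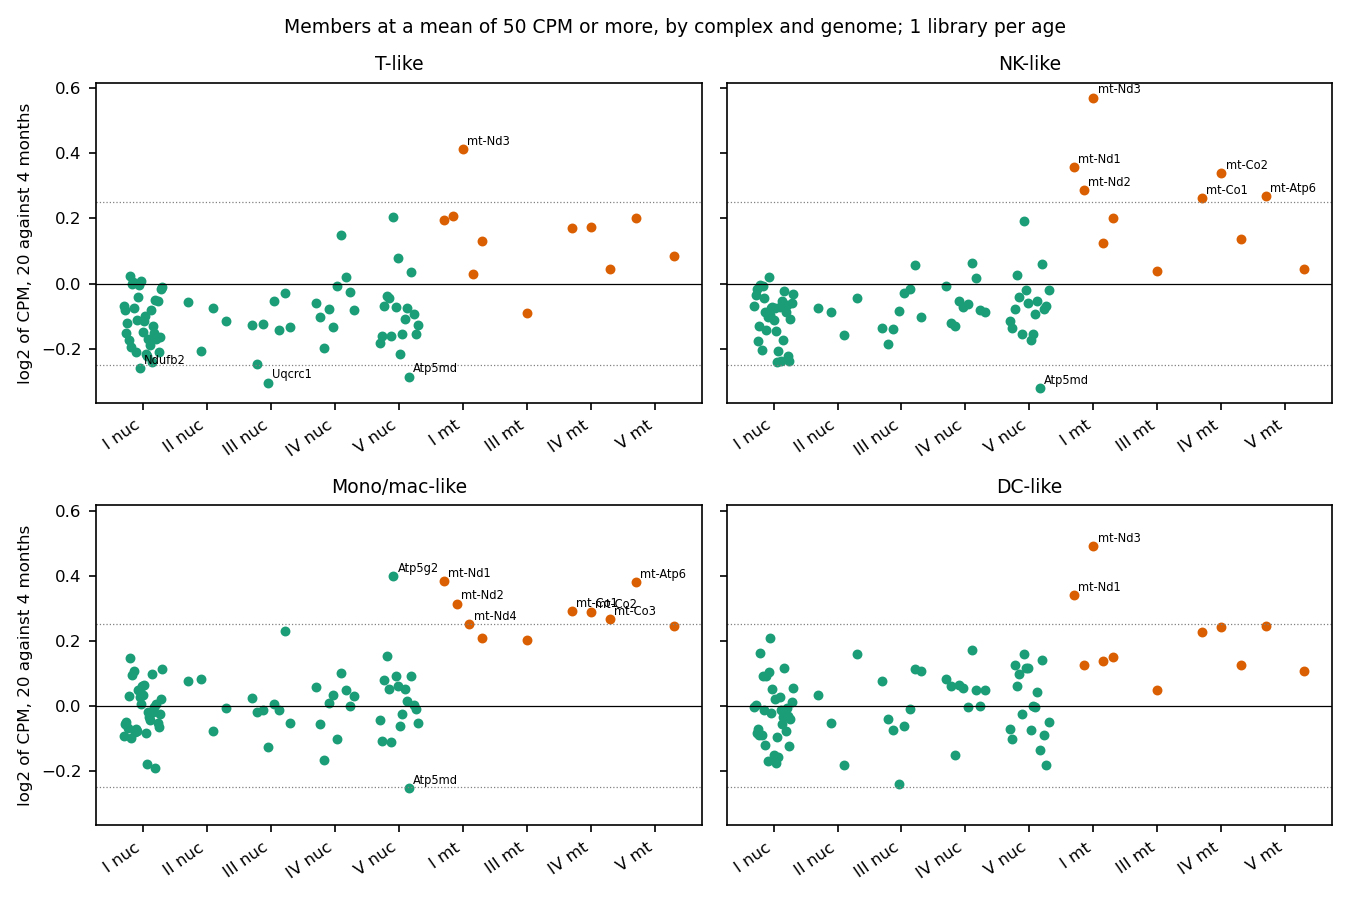
log2 ratio of CPM at 20 against 4 months for each member at a mean of 50 CPM or more, by complex and genome (nuc, nuclear, green; mt, mitochondrial, orange) in 4 classes, 1 library per age; dotted lines mark 0.25 in each direction and members past them are named. Mitochondrial genes lie above 0 in monocyte/macrophage-like, NK-like and dendritic cell-like cells, with mt-Cytb below 0 in T-like cells, while nuclear genes mostly lie within the lines.

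The nuclear genes past the fold were few. Atp5md, a small membrane subunit of ATP synthase (chr19:47083464-47090647, GRCm38), was at 267, 275 and 219 CPM in T-like, 269, 271 and 215 in NK-like, 258, 257 and 217 in monocyte/macrophage-like and 244, 255 and 221 in dendritic cell-like cells. The 20-month library was the lowest in all 4, with log2 ratios against 4 months of -0.29, -0.32, -0.25 and -0.14. Uqcrc1, a core subunit of complex III, was at 138, 150.01 and 111 CPM in T-like cells, highest at 12 and lowest at 20 months, with a log2 ratio of -0.30 (95% interval -0.36 to -0.25) at 20 against 4 months. The same order held in monocyte/macrophage-like cells, at 124, 142 and 114 CPM, where the log2 ratio was -0.13. Ndufb2, an accessory subunit of complex I, gave -0.26 in T-like cells, with Uqcr11 of complex III at -0.248 just inside the fold. In monocyte/macrophage-like cells the other low values were Ndufs4 at -0.19, Ndufb7 at -0.18 and Cox6a1 at -0.17. By complex, the nuclear log2 ratios at 20 against 4 months in T-like cells were -0.11 for I, -0.14 for II, -0.12 for III, -0.056 for IV and -0.10 for V. In monocyte/macrophage-like cells they were -0.012, 0.026, 0.027, -0.0079 and 0.0018. In T-like cells complex IV was nearest to 0, and in monocyte/macrophage-like cells the 5 complexes fell on both sides of 0.

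Atp5g1, Atp5g2 and Atp5g3 encode the same mature protein, subunit c of the ATP synthase rotor, with different import sequences, and they differed from each other. Atp5g2 was the only nuclear gene past the fold upward in monocyte/macrophage-like cells, at 104, 122 and 137 CPM and a log2 ratio at 20 against 4 months of 0.40 (95% interval 0.34 to 0.46). It was at 160.1, 176 and 184 CPM in T-like, 169.5, 175 and 194 in NK-like and 122, 126 and 136 in dendritic cell-like cells, with log2 ratios of 0.20, 0.19 and 0.16. It was highest at 20 months in all 4 classes. Atp5g1 gave -0.16, -0.16, -0.11 and -0.024 in T-like, NK-like, monocyte/macrophage-like and dendritic cell-like cells, and Atp5g3 gave -0.073, -0.021, 0.092 and 0.12. Atp5g1 was therefore lower at 20 than at 4 months in the same 4 classes, by less than 0.25 in each. The promoters of these 3 genes are shown because their transcripts for 1 protein went in different directions, and that of Uqcrh because it carries a motif and differed strongly between classes, as given further on. Sequences are RefSeq's, GRCm38.p6, minus strand, 250 bases before to 50 after the annotated start, 5′ to 3′. Capitals mark the core of sites of nuclear respiratory factor 1 (NRF1), which activates many respiratory chain genes, or CCGGAAGT, a core of ETS-family sites such as those of GABP, on either strand.
Atp5g1, chr11:96075582-96075881: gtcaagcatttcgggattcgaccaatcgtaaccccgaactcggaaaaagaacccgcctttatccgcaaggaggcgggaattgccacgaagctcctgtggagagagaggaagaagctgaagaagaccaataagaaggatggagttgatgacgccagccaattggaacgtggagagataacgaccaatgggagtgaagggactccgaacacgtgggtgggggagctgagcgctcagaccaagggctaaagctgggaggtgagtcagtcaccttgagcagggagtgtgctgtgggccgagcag
Atp5g2, chr15:102670998-102671297: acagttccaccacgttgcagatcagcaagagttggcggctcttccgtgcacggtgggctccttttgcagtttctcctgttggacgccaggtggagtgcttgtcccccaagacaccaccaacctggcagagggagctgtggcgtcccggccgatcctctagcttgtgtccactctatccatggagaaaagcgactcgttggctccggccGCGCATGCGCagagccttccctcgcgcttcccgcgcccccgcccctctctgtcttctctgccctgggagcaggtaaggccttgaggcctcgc
Atp5g3, chr2:73911277-73911576: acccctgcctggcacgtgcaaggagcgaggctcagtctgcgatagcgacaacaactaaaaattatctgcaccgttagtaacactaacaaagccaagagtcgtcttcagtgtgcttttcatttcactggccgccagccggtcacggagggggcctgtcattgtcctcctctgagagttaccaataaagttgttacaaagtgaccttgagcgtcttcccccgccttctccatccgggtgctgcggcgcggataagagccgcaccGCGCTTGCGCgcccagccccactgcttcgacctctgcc
Uqcrh, chr4:116075021-116075320: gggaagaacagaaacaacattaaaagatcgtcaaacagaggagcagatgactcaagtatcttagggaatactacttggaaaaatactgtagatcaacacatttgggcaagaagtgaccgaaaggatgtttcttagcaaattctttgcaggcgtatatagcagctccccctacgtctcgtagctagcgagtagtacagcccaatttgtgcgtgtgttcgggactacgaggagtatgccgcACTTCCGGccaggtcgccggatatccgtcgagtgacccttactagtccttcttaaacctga
The NRF1 core begins at base 209 of the Atp5g2 window and at base 263 of the Atp5g3 window, neither motif is in the Atp5g1 window, and the reverse complement of CCGGAAGT begins at base 240 in Uqcrh.

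Of the 80 nuclear symbols, 67 matched a promoter of the same length. The NRF1 core, as capitalised in Atp5g2 and Atp5g3 with any base between its GCGC and TGCGC, occurred in 17 of them, or 25.4%, against 5.19% of 27025 genes with a promoter and 12.2% of the 2442 of them at a mean of 50 CPM or more. The 17 came from all 5 complexes. They were Ndufa5, Ndufa6, Ndufa8, Ndufa11, Ndufb4, Ndufs5 and Ndufs6 of complex I, Sdha and Sdhd of II, Uqcrc1 of III, Cox6a1 of IV, and Atp5c1, Atp5g2, Atp5g3, Atp5h, Atp5k and Atp5o of V. CCGGAAGT occurred in 5 (Atp5h, Cox8a, Ndufs3, Uqcr11 and Uqcrh), or 7.46%, against 4.31% of all genes and 9.09% of those at 50 CPM or more. A core of YY1 sites occurred in 5 (Atp5j, Ndufa9, Ndufs4, Ndufs6 and Ndufs7), or 7.46%, against 0.995% and 2.498%. TATAAA occurred in 11.9%, against 15.7% of all genes and 11.1% of those at 50 CPM or more. Both strands were searched and each motif was counted separately, whether or not its letters overlapped another's. A match describes letters only. The nuclear members lie on 19 chromosomes, with at most 8 on any 1. Their longest protein-coding transcripts in GENCODE M21 had a median length of 838 bases, against 2519 for protein-coding genes at 50 CPM or more.

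Between classes, each library gave 1 value for each class, so 3 values were compared with 3 by edgeR's quasi-likelihood test with library as a term and Benjamini-Hochberg adjustment over all genes tested. The 3 libraries differ in age, and nothing says they are otherwise replicates. Monocyte/macrophage-like cells had lower OXPHOS levels than T-like cells. Of the 81 nuclear members 79 were tested, and 41 were lower and 10 higher at an adjusted p under 0.05, with a median log2 fold change of -0.14. Of the 13 mitochondrial genes 11 were lower and 0 higher, with a median of -0.47. At an unadjusted p under 0.05, 12 of the 13 differed, and DESeq2 called 10 lower and 0 higher. Of all 22005 genes tested, 28.6% were lower and 26.9% higher, with a median of -0.044. The nuclear count of 41 lower was 27 without the 4-month library and 27 without the 12-month library.

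The nuclear genes lowest in monocyte/macrophage-like cells came from several complexes. Ndufa4, a subunit now placed in complex IV (chr6:11900292-11907497), was at 260.0, 269 and 266 CPM against 471, 490.2 and 445 CPM in T-like cells, without overlap, a log2 fold change of -0.82 (SE 0.0447, adjusted p = 2.09e-05). Uqcrh, the hinge protein of complex III, was at 357, 390.3 and 419 against 666, 649 and 653 CPM, a log2 fold change of -0.75 (SE 0.0482, adjusted p = 4.11e-05). Its monocyte/macrophage-like level was lowest at 4 and highest at 20 months, with a log2 ratio between these of 0.23 (95% interval 0.20 to 0.26), and it stayed below all T-like values. Ndufb11, an X-linked accessory subunit of complex I, was at 137, 144 and 139 against 230.3, 232 and 229.6 CPM, a log2 fold change of -0.72 (SE 0.0427, adjusted p = 2.98e-05). Among the mitochondrial genes mt-Nd3 had a log2 fold change of -0.78 and mt-Nd1 of -0.65, at adjusted p values of 8.33e-05 and 2.96e-05. mt-Co3 (-0.64), mt-Nd2 (-0.64), mt-Cytb (-0.62), mt-Atp6 (-0.57), mt-Atp8 (-0.47), mt-Nd4 (-0.39), mt-Nd4l (-0.36), mt-Nd5 (-0.35) and mt-Co2 (-0.29) were also lower. mt-Co1 was not among them. Its values of 1327, 1522 and 1624 CPM in monocyte/macrophage-like cells overlapped those of T-like cells given above, with a log2 fold change of -0.000080 (SE 0.0313, adjusted p = 0.999). mt-Nd6 had an adjusted p of 0.0572.

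The 10 nuclear genes higher in monocyte/macrophage-like cells were Cox6b2, Cox6a2, Cox7a1, Ndufc2, Sdhc, Ndufb8, Ndufs8, Sdhd, Uqcrb and Uqcrq. Ndufc2, an accessory subunit of complex I, was at 347, 360.2 and 372 against 285, 283 and 269 CPM, a log2 fold change of 0.37 (SE 0.0457, adjusted p = 7.20e-04). Complex II split. Its membrane anchors Sdhc and Sdhd were higher (0.27 and 0.25), its flavoprotein Sdha was lower (-0.19, adjusted p = 0.0130), and the iron-sulphur subunit Sdhb had a log2 fold change of 0.080 (adjusted p = 0.338). In T-like cells Sdha was at 97.6, 101 and 93.8, Sdhb at 267, 267 and 231, Sdhc at 126, 129 and 119.7 and Sdhd at 111, 108 and 103 CPM. In monocyte/macrophage-like cells they were at 81.00, 88.3 and 85.4, 261, 266 and 277, 156, 148 and 148 and 127, 127 and 126 CPM. Cox6b2, a testis form of a complex IV subunit, was at 5.63, 5.96 and 5.27 against 1.67, 1.904 and 1.89 CPM (log2 fold change 1.63), and the muscle form Cox7a1 at 3.36, 2.95 and 3.51 against 1.15, 1.65 and 1.44 CPM (1.21), both levels of a few CPM.

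NK-like cells had higher mitochondrial gene levels than T-like cells, with 10 of 13 genes higher and 0 lower (all 19981 genes, 15.6% higher and 12.3% lower) and a median log2 fold change of 0.24. mt-Nd4 had the largest, 0.34 (SE 0.0316, adjusted p = 6.34e-04), from 716, 773 and 781 against 637, 637 and 650.4 CPM, which did not overlap. mt-Nd5 (0.28), mt-Nd3 (0.28), mt-Co3 (0.26), mt-Cytb (0.26), mt-Atp6 (0.24), mt-Co1 (0.24), mt-Nd1 (0.22), mt-Nd2 (0.21) and mt-Co2 (0.21) also passed. At an unadjusted p under 0.05, 11 differed, and DESeq2 called 10 higher and 0 lower. The summed nuclear share of raw counts was lower in NK-like cells in every library, at 2.09, 2.04 and 1.97% against 2.13, 2.16 and 2.0001%. edgeR rescales the library totals (TMM), so its fold changes can differ from ratios of the CPM printed. Of 78 nuclear members tested on that scale, 15 were higher and 2 lower, against the direction of the summed share. With no filter on low counts, which moved the median of all genes to -0.11, these counts were 7 and 9. With mitochondrial and ribosomal protein genes taken out they were 13 and 4. The 15 higher were 6, 8 and 6 without the 4-, 12- and 20-month library. Without the library term, 6 nuclear and 4 mitochondrial genes were higher and 0 lower. Cox7a2, the widely expressed form of complex IV subunit VIIa, was at 524, 481 and 502 CPM in NK-like against 402, 414 and 399 CPM in T-like cells, without overlap, a log2 fold change of 0.41 (SE 0.0466, adjusted p = 0.00135). Sdhc was at 151, 138 and 136 CPM, a log2 fold change of 0.28 (SE 0.0493, adjusted p = 0.00749). Lower in NK-like cells were Ndufv2 at -0.16 and Ndufv3 at -0.14, parts of the NADH-binding module of complex I, at adjusted p values of 0.0235 and 0.0366.

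Dendritic cell-like cells had lower nuclear OXPHOS levels than monocyte/macrophage-like cells, with 35 of 78 nuclear members lower and 4 higher (all 19064 genes, 15.3% lower and 18.8% higher). Of the mitochondrial genes 5 of 13 were higher and 0 lower, as many as at an unadjusted p under 0.05 and by DESeq2. With no filter on low counts, which moved the median of all genes to -0.21, 56 nuclear members were lower and 0 higher, and 5 mitochondrial genes were higher and 2 lower. The 35 lower were 26, 23 and 26 without the 4-, 12- and 20-month library, and the 4 higher were 0, 2 and 1. Without the library term, 11 nuclear members were lower and 1 higher, and 0 mitochondrial genes were called. Ndufc2 was at 256, 236 and 246 CPM in dendritic cell-like cells, below all 3 monocyte/macrophage-like values, a log2 fold change of -0.61 (SE 0.0448, adjusted p = 3.47e-05). Sdhb was at 205, 194 and 197 CPM, a log2 fold change of -0.49 (SE 0.0438, adjusted p = 9.89e-05), and Sdhc and Sdhd were lower as well, at -0.36 and -0.29. Sdha had -0.034 (adjusted p = 0.656). Ndufa5 (-0.40) and the iron-sulphur subunit Ndufs7 (-0.38) of complex I completed the 5 lowest, with Cox6a2. Higher were mt-Nd3 at 0.56 (SE 0.0626, adjusted p = 3.23e-04), mt-Nd1 at 0.29, mt-Nd4 at 0.24, mt-Co2 at 0.24 and mt-Co1 at 0.22. Cox6b2 had its highest levels of these 5 classes in dendritic cell-like cells, 10.2, 7.67 and 7.998 CPM, a log2 fold change of 0.55 (SE 0.155, adjusted p = 0.0287). The part of RNA from other cells in levels of a few CPM was not tested.

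**Figure D4:**
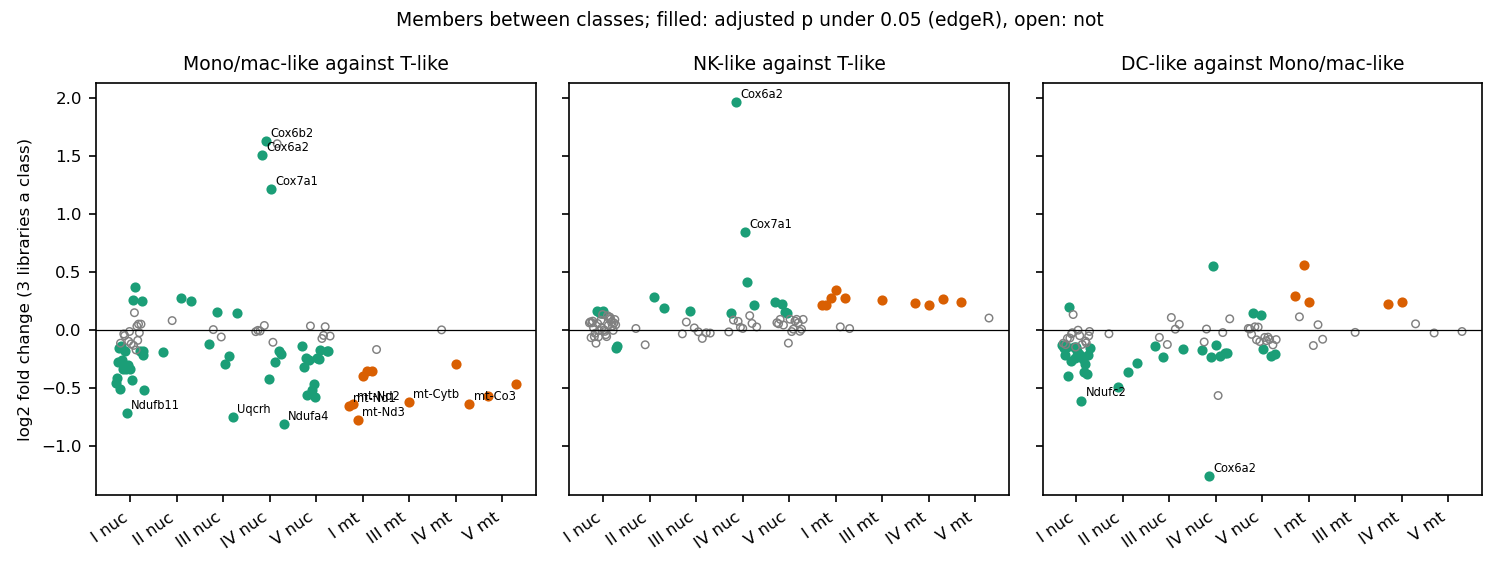
log2 fold change of each member between classes by complex and genome (nuc, nuclear; mt, mitochondrial), 3 libraries per class; filled points passed an adjusted p of 0.05 (edgeR's quasi-likelihood test), open points did not, and called members past 0.6 in size are named. The 11 mitochondrial genes called in the left panel lie below 0, and the 10 called in the middle panel lie above 0.

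The largest difference of any member between classes was that of Cox6a2, the heart and skeletal muscle form of complex IV subunit VIa (ENSMUSG00000030785.8, chr7:128205435-128206387). In plasmacytoid dendritic cell-like cells it was at 641, 339 and 528 CPM at 4, 12 and 20 months. NK-like cells were next, at 5.63, 4.19 and 5.52 CPM, followed by monocyte/macrophage-like cells at 3.65, 3.55 and 4.67 CPM. Dendritic cell-like cells at 1.48, 1.598 and 2.08 CPM and T-like cells at 1.52, 1.23 and 1.44 CPM overlapped. The lowest plasmacytoid value lay above every value of the other classes. The fold over the NK-like level was 114 (89.98 to 145) at 4 months, 80.9 (60.5 to 109) at 12 months and 95.7 (71.7 to 129) at 20 months, with 95% counting intervals in parentheses. These 171 cells, 0.417% of immune cells, held 500 of the 1418 Cox6a2 counts, or 35.3%. Cox6a2 was neither a marker nor used in clustering. It was singled out with its values known, so this is a description without a test. At least 1 Cox6a2 count was found in 69.4, 45.6 and 69.2% of plasmacytoid cells, against 0.879, 0.890 and 0.892% of T-like cells. With each cell thinned to 3000 counts, fewer than any cell held, these were 58.1, 31.6 and 63.5% and 0.430, 0.341 and 0.334%. Median depths were 5112, 5779 and 5182 and 5306, 6270 and 5916 counts per cell. At 12 months, where the share was lowest, 1 cell held 22.2% of the plasmacytoid Cox6a2 counts.

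The widely expressed form Cox6a1 was lowest in that class, at 382, 326 and 336 CPM in plasmacytoid dendritic cell-like cells against 581, 566 and 523 CPM in dendritic cell-like, 554, 529 and 506 in NK-like, 561, 564 and 489 in T-like and 562, 530.2 and 501 in monocyte/macrophage-like cells. The other muscle and testis forms of complex IV subunits were at or near 0 there. Cox7a2 was at 184, 204 and 199 CPM and Cox7a1 at 2.91, 0 and 0 CPM in the plasmacytoid class, and Cox6b1 at 291, 253 and 236 and Cox6b2 at 0, 2.69 and 0 CPM. That class summed to 343211, 371665 and 291888 counts, so 2.91 and 2.69 CPM are single counts. Levels of a few CPM, as in the other classes, cannot be told from 0 there. Cox6a2 levels in the other classes, though low, differed between them. The log2 fold change was 1.97 (SE 0.161, adjusted p = 3.95e-04) for NK-like against T-like, 1.505 (SE 0.152, adjusted p = 3.04e-04) for monocyte/macrophage-like against T-like and -1.26 (SE 0.225, adjusted p = 0.00357) for dendritic cell-like against monocyte/macrophage-like cells. In NK-like cells 1 cell held 8.33, 16.7 and 18.6% of the Cox6a2 counts at 4, 12 and 20 months. With cells thinned to 3000 counts, Cox6a2 was found in 1.17, 0.959 and 1.13% of NK-like cells. The same shares were 0.921, 0.872 and 1.07% in monocyte/macrophage-like cells. The part of RNA from plasmacytoid cells in these low levels was not tested. Cox8b (muscle) had 2 counts and Cox8c (testis) 8 in all immune cells, and Cox7b2 was at 0.321, 1.37 and 0.477 CPM in monocyte/macrophage-like cells. Among the common forms, Cox8a was at 644, 636 and 632 CPM in T-like and 542, 562 and 542 CPM in monocyte/macrophage-like cells and Cox7b at 354, 357 and 392 and 292, 299.9 and 313 CPM. For subunit c, Atp5g2 and Atp5g3 were lower in monocyte/macrophage-like than in T-like cells (-0.52 and -0.46) and Atp5g1 had 0.034 (adjusted p = 0.631). In NK-like against T-like cells the values were 0.15, 0.14 and 0.041, of which the first 2 passed. The Atp5g2 levels given further up overlapped between these classes, with the NK-like level the lower at 12 months.

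**Figure D5:**
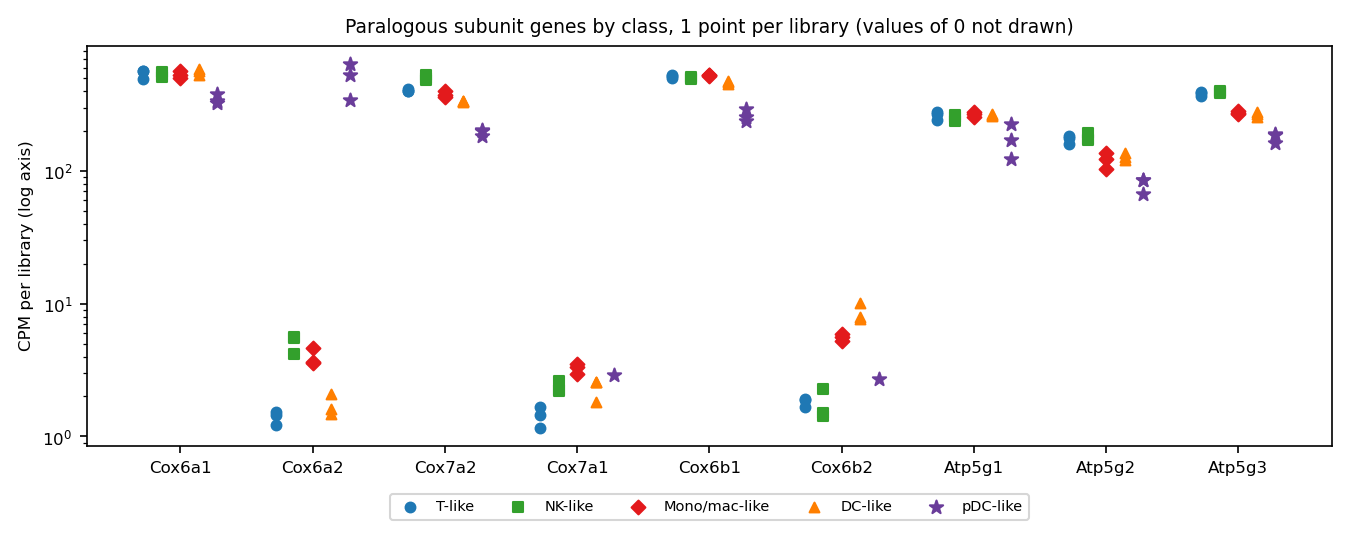
CPM in each library (log axis, 3 points per class and gene, values of 0 not drawn) for paralogous genes of complex IV subunits VIa, VIIa and VIb and of ATP synthase subunit c. Cox6a2 lies between 339 and 641 CPM in plasmacytoid dendritic cell-like cells (pDC-like) and at or below 5.63 CPM in the other classes.

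Genes around the respiratory chain were counted from lists of related genes. The share of all genes called in monocyte/macrophage-like against T-like cells, 26.9% higher and 28.6% lower, is the background for the first of these counts, and several lie near it. In monocyte/macrophage-like against T-like cells, 3 of 15 complex I assembly factors were higher and 8 lower, and 7 of 30 assembly factors of complexes II to V were higher and 15 lower (medians -0.23 and -0.22). Of 17 tricarboxylic acid cycle genes 3 were higher and 9 lower, of 14 glycolysis gene identifiers 5 and 4, and of 9 tested regulators of mitochondrial biogenesis 4 and 2. Of 12 stress genes of tissue digestion 10 were higher and 0 lower (median 0.92; all genes -0.044). In NK-like against T-like cells 9 of 17 mitochondrial chaperone and import genes were higher and 1 lower (median 0.13; all genes 15.6% higher and 12.3% lower). In dendritic cell-like against monocyte/macrophage-like cells 10 of 13 glycolysis genes were lower and 1 higher (median -0.45), and 12 of 30 assembly factors of complexes II to V were lower and 3 higher (all genes 15.3% lower and 18.8% higher). At 20 against 4 months, list genes at 50 CPM or more were counted past a log2 ratio of 0.25. In monocyte/macrophage-like cells (all genes 12.1% higher and 13.6% lower) 1 of 9 electron carrier and exchanger genes was higher and 2 lower, 1 of 11 glycolysis genes was higher and 2 lower, and 1 of 10 assembly factors of complexes II to V was lower. None of 10 cycle genes, of 14 chaperone and import genes and of the 1 complex I assembly factor was past the fold there, and 8 of 10 stress genes were lower and 1 higher. In T-like cells (9.16% higher and 15.7% lower) 1 of 9 electron carriers, 1 of 10 assembly factors of complexes II to V, 1 of 14 chaperone and import genes and the 1 biogenesis regulator measured, at -0.44, were lower. There 1 of 10 glycolysis genes was higher, 0 of 10 cycle genes were past the fold, and 5 of 8 stress genes were lower and 1 higher. In dendritic cell-like cells (11.5% higher and 14.7% lower) 2 of 10 electron carriers were lower, and of 10 assembly factors of complexes II to V 1 was higher and 2 lower. The mitochondrial transcription and DNA-packaging factor Tfam was at 26.6, 28.7 and 27.1 CPM in monocyte/macrophage-like and 50.5, 47.9 and 47.7 CPM in T-like cells at 4, 12 and 20 months. Ppargc1a, a coactivator of mitochondrial biogenesis, was at 1.11, 1.17 and 1.05 and 1.34, 1.4997 and 1.26 CPM, and Nrf1 at 32.9, 29.9 and 29.8 and 34.8, 32.6 and 30.4 CPM.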

How the data were processed

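Per the labels' protocols, PIP-seq libraries (v4.0 Plus T20 kit, 3′ ends) were sequenced on an Element AVITI instrument. The submitters' processing notes name STAR 2.7.10a and GRCm38. The annotation, counting, strand use and cell calling are not given in the sources used here. The deposited files hold raw whole-number counts per gene and cell, 1 library per age. A 3′ count depends on how a transcript ends, so levels of single genes are not set against each other as abundances, and the nuclear to mitochondrial ratio serves to compare classes and ages.

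Members and lists were chosen with earlier results of these data known. Cells above 15% mitochondrial counts were removed, as were the 6% with the highest scores for resembling simulated doublets. Counts were scaled to 10000 per cell over all genes. The members, the other mitochondrial genes and the lists of related genes were then left out. The remaining genes gave 2000 variable genes and 30 principal components. These were clustered with the Leiden algorithm at resolution 1 over 15 neighbours (scanpy 1.11.5, leidenalg 0.10.2). The alternative given below as OXPHOS genes kept in the clustering put back all of the genes left out, not the members alone. Clusters were named from lists of marker genes. Raw counts were then summed per library and class, and CPM are counts per 1000000 of that sum. The 12 to 4 and 20 to 4 month values have no replicate and no test. Their 95% intervals cover counting error only. Those of shares and single genes are exact (Clopper-Pearson), and those of log2 nuclear to mitochondrial ratios are normal approximations of a log odds ratio. Genes with a mean of at least 50 CPM entered the counts past a log2 ratio of 0.25. Class contrasts used edgeR 4.0.16, the quasi-likelihood test with TMM, filterByExpr, a library term and Benjamini-Hochberg adjustment at 0.05 over all genes tested, and were tested on simulated data. Both classes of a contrast come from the same 3 libraries, so the library term pairs them. Their p-values measure the spread over 3 libraries of different ages.

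Named genes are the 13 mitochondrial genes, the 5 highest and 5 lowest members by age in monocyte/macrophage-like and T-like cells and in each contrast, the Sdh genes, subunits with tissue forms, and the 3 with most counts. A member that this rule names is not reported here. Other members named (such as Ndufs7 at 12 months) were chosen after their values were seen. Atp5o reads may be split between its 2 identifiers. The 16 annotated OXPHOS pseudogenes held 2.07 counts per 100 of the nuclear members. Alternatives covered doublets, filters, scaling (DESeq2 1.42.0 size factors and test), clustering and leaving out each library.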

Additional observations from a re-analysis of the deposited data

Results flagged for a closer look

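In NK-like cells the log2 ratio of the nuclear OXPHOS share at 12 against 4 months was -0.035 (95% interval -0.042 to -0.029), while it was 0.014 (95% interval 0.0099 to 0.018) in T-like and 0.016 (95% interval 0.011 to 0.021) in monocyte/macrophage-like cells. The opposite sign in 2 of the 4 large classes drew attention to it. With 1 library per age, the difference between classes was not tested.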

How the results depend on the processing

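Each age has 1 library, so replicate error between ages is unknown. Few counts in total limit mainly the plasmacytoid class of 52 to 62 cells per library. In large classes the nuclear share of a cell went with its depth. Its Pearson correlation with log2 counts at 4, 12 and 20 months was 0.44, 0.44 and 0.26 in T-like cells. In monocyte/macrophage-like cells it was 0.33, 0.17 and 0.14, and for the mitochondrial share there -0.24, -0.15 and -0.15. The part of depth in differences between classes and ages was not tested. The nuclear to mitochondrial ratio was lower at 20 than at 4 months under every alternative run in monocyte/macrophage-like and T-like cells. At 12 months the monocyte/macrophage-like value changed sign with each library clustered on its own. The cause was not tested for any value that moved. Leaving out clusters, or counting cluster 4 in, was chosen after seeing the data. For the nuclear share in monocyte/macrophage-like cells at 12 against 4 months, the log2 value of 0.016 was 0.028 with doublets kept, 0.034 with mean over cells, 0.024 with OXPHOS genes kept in the clustering, 0.026 with clustering resolution of 0.5, 0.038 with each library clustered on its own, 0.022 with missed subunits added, 0.031 with mitochondrial and ribosomal protein genes taken out of the total and 0.026 with cluster 4 counted in. For the nuclear share in monocyte/macrophage-like cells at 20 against 4 months, the log2 value of -0.0014 was 0.013 with doublets kept, 0.021 with mean over cells, 0.0069 with OXPHOS genes kept in the clustering, 0.0092 with clustering resolution of 0.5, 0.011 with each library clustered on its own, 0.0070 with missed subunits added, 0.030 with mitochondrial and ribosomal protein genes taken out of the total and 0.0095 with cluster 4 counted in. For the nuclear to mitochondrial ratio in monocyte/macrophage-like cells at 12 against 4 months, the log2 value of -0.18 was -0.088 with doublets kept, -0.14 with mean over cells, -0.14 with OXPHOS genes kept in the clustering, -0.095 with clustering resolution of 0.5, 0.0086 with each library clustered on its own and -0.10 with cluster 4 counted in. For the nuclear to mitochondrial ratio in monocyte/macrophage-like cells at 20 against 4 months, the log2 value of -0.30 was -0.18 with doublets kept, -0.26 with mean over cells, -0.25 with OXPHOS genes kept in the clustering, -0.20 with clustering resolution of 0.5, -0.20 with each library clustered on its own and -0.19 with cluster 4 counted in. For the nuclear share in T-like cells at 12 against 4 months, the log2 value of 0.014 was 0.022 with mean over cells, 0.027 with each library clustered on its own, 0.029 with mitochondrial and ribosomal protein genes taken out of the total and 0.042 without cluster 10. For the nuclear share in T-like cells at 20 against 4 months, the log2 value of -0.094 was -0.048 with mean over cells, -0.048 with mitochondrial and ribosomal protein genes taken out of the total, -0.071 without clusters 12, 18 and 21 and -0.085 without cluster 9. For the nuclear to mitochondrial ratio in T-like cells at 12 against 4 months, the log2 value of -0.10 was -0.11 with mean over cells, -0.11 with clustering resolution of 0.5, -0.069 with each library clustered on its own and -0.087 without the nuclear and the mitochondrial gene of most counts. For the nuclear to mitochondrial ratio in T-like cells at 20 against 4 months, the log2 value of -0.20 was -0.22 with mean over cells, -0.21 with clustering resolution of 0.5, -0.19 with each library clustered on its own, -0.23 without the nuclear and the mitochondrial gene of most counts and -0.15 without cluster 9.

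Of the members called between classes, 62 for monocyte/macrophage-like against T-like, 27 for NK-like against T-like and 44 for dendritic cell-like against monocyte/macrophage-like cells, 41 and 17 were called in the first and the second without mitochondrial and ribosomal protein genes, which takes out the 13 mitochondrial members. The replicate block is the library term. Without it, 10 were called in the second and 12 in the third. Leaving out each library in turn gave 46 to 56, 15 to 18 and 30 to 32 called members in the 3 contrasts. Members past the fold at 20 against 4 months with a log2 ratio of 0.5 in place of 0.25 numbered 0 in T-like, 1 in NK-like, 0 in monocyte/macrophage-like and 0 in dendritic cell-like cells. At 12 months that ratio gave 0 in NK-like, 0 in monocyte/macrophage-like and 0 in dendritic cell-like cells. A mean of 10 CPM gave 1 in T-like and 4 in dendritic cell-like cells at 12 months, and TMM factors gave 1 in monocyte/macrophage-like cells at 12 months.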

Other observations

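Subunits and partners outside the symbol pattern had age values of their own. Cox7a2l, a factor of respiratory supercomplex assembly, was at 186, 233 and 256 CPM at 4, 12 and 20 months in monocyte/macrophage-like cells and at 323, 342 and 339.5 CPM in T-like cells, lowest at 4 months in both. Cycs, the electron carrier cytochrome c, was at 526, 422 and 369.7 CPM in monocyte/macrophage-like, 606, 472 and 476 CPM in dendritic cell-like and 514, 497 and 459 CPM in NK-like cells, highest at 4 months in each, and at 134, 159 and 168 CPM in plasmacytoid dendritic cell-like cells. Cox4i1, the common form of complex IV subunit 4, was at 381, 393 and 344 CPM in T-like and 342, 368 and 354 CPM in monocyte/macrophage-like cells.

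Ucp2, an inner membrane carrier protein, was highest at 12 months in all 5 classes. It was at 298, 421 and 242 CPM in monocyte/macrophage-like, 197, 294 and 178 in T-like, 176, 261 and 154 in NK-like, 263, 355 and 207 in dendritic cell-like and 262, 379 and 236 CPM in plasmacytoid dendritic cell-like cells. These genes were chosen after their values were seen, and ages rest on 1 library each.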
